A study of Mus musculus with 2 samples.

Results

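The 10 genes described here, Pou2f3, Sox8, Spib, Foxj1, Hnf4a, Hnf4g, Grhl1, Foxa1, Foxi1 and Insm1, encode transcription factors that set the identity of specialised epithelia outside the thymus. They were taken by symbol from the 32285 features of each matrix, and all 10 were found in both libraries. The tissue was CD45- total thymic stroma, which is what remains of a digested thymus after blood cells are removed. Both libraries came from mice of genotype E2F_M11, in which CRISPR-Cas9 had taken out a pair of E2F sites in the proximal promoter of Foxn1, the master regulator of thymic epithelium. The age and sex of the mice were not given in the sources used here, and nothing said that the libraries came from separate animals. Wild-type stroma was not analysed here, so every comparison below is between cell classes of E2F_M11 thymus and none measures the deletion.

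Medullary epithelium of the thymus displays antigens of other tissues to developing T cells. One way is the regulator Aire, which opens many silent genes at low frequency in single cells. Another is the mimetic cells, which take on the programme of a peripheral cell type such as tuft cells, skin keratinocytes, microfold cells, ciliated cells or enterocytes. In peripheral tissues each of these programmes depends on a small number of lineage factors. Pou2f3 is needed for tuft cells, Sox8 and the Ets factor Spib for microfold cells of the gut, and Foxj1 for motile cilia. The nuclear receptors Hnf4a and Hnf4g act in liver and intestine, and the grainyhead factor Grhl1 acts in the outer epidermis. The forkhead factor Foxa1 opens chromatin in endodermal epithelia, Foxi1 directs ionocytes, and the zinc finger repressor Insm1 acts in endocrine and neuroendocrine cells.

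Cells were sorted into classes by sets of marker genes that hold none of the 10 factors, so the levels given below played no part in the sorting. A mimetic gate required at least 3 markers of its type and at least 1 general epithelial marker. In libraries 1 and 2 the gates held 67 and 175 tuft, 55 and 226 keratinocyte, 50 and 70 microfold, 32 and 18 enterocyte/hepatocyte, 14 and 27 secretory, 10 and 8 ciliated, and 6 and 11 neuroendocrine cells. The ionocyte gate held 2 and 0 cells and the muscle gate 0 and 1. The pooled mimetic class thus had 236 and 536 cells. Other epithelium comprised 251 and 274 Aire-expressing, 334 and 384 Ccl21a-high and 118 and 217 cortical cells. The Aire-expressing class holds only cells outside the mimetic and cortical gates, not all epithelium with an Aire UMI. Non-epithelial stroma comprised 1728 and 2293 fibroblasts, 85 and 77 endothelial, 31 and 44 mural, and 85 and 12 mesothelial cells.

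The libraries differed in depth. After filtering, library 1 had 3588 cells with a median of 8727 unique molecular identifiers (UMIs, each the tag of 1 captured molecule), and library 2 had 8186 cells with a median of 1874. For this reason levels are given as CPM, the UMIs of a gene per 1000000 UMIs of a class, and shares of cells with a UMI are also given after thinning each cell to 1000 UMIs. The 12 general epithelial markers summed to between 5227 and 9841 CPM in the 5 larger mimetic gates, except 3627 CPM in the enterocyte/hepatocyte gate of library 2, against 59.7 and 205 CPM in fibroblasts. That gate of library 2 also had all 7 fibroblast markers, at a summed 5048 CPM, and 9 of 10 thymocyte markers, at 1121 CPM. In the other mimetic gates with at least 6 cells the fibroblast markers summed to 62.2 to 233 CPM in library 1 and 548 to 1874 CPM in library 2. The libraries shared 30 barcodes.

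The genes lie apart from one another in the mouse genome (GRCm38, positions from GENCODE). Pou2f3 lies at chr9:43123939-43210369 on the minus strand, Sox8 at chr17:25565892-25570686 (minus), Spib at chr7:44525993-44532071 (minus), Foxj1 at chr11:116330704-116335399 (minus) and Hnf4a at chr2:163506808-163572910 (plus). Hnf4g lies at chr3:3508030-3658052 (plus), Grhl1 at chr12:24572283-24617391 (plus), Foxa1 at chr12:57540628-57546916 (minus), Foxi1 at chr11:34204338-34208089 (minus) and Insm1 at chr2:146221921-146225020 (plus). Annotated antisense genes overlap Sox8 (2810468N07Rik) and Hnf4a (Hnf4aos). How the authors' counting treated strand is not given in the sources used here. Whether reads of the antisense genes entered the counts of Sox8 and Hnf4a was not tested.

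RefSeq promoters (GRCm38.p6, 250 bases before to 50 bases after the start) were found for 6 of the 10 genes, in 8 windows. Those of Sox8 and Spib are shown because both genes were highest in the same mimetic gate, and that of Foxa1 because it holds a forkhead motif, the kind of site bound by Foxa1, Foxj1 and Foxi1. The windows are chr17:25570637-25570936 (minus strand) for Sox8, chr7:44532022-44532321 (minus strand) for Spib and chr12:57546062-57546361 (minus strand) for Foxa1. They are written 5′ to 3′ on the strand of the gene, and capitals mark the forkhead motif.
Sox8 promoter: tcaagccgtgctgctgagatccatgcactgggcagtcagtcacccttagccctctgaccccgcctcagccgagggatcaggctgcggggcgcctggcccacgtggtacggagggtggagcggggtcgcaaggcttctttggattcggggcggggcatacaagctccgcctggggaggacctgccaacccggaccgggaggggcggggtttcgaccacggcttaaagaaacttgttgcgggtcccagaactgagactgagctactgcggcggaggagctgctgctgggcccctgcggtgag
Spib promoter: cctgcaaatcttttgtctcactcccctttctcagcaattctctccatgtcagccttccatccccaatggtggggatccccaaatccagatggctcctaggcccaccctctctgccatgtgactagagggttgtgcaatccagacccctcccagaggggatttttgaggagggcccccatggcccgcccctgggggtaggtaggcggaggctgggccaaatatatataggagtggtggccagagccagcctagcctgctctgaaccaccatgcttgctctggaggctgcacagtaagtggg
Foxa1 promoter: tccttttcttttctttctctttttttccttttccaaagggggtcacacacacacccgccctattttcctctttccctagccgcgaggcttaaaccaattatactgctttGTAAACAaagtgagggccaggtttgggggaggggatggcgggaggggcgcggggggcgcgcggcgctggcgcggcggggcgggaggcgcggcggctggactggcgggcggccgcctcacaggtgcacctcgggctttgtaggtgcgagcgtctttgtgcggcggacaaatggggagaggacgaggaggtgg

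Both strands of the 8 windows were searched for the letters of 7 factor families, overlaps with other motifs allowed. The forkhead letters TGTTTAC, as GTAAACA on the gene's strand, occurred once, at bases 110 to 116 of the Foxa1 window, which is 141 bases before the start. These letters occurred in 3.65% of 32851 RefSeq promoters of the same length. An Ets motif of the SPI type (GAGGAAG, in 13.6% of promoters) occurred once, 18 bases after the start in the second Hnf4a window. No match was found for ATGCAAAT (POU octamer, 1.74% of promoters), ACAATGG (SOX, 3.66%), AACCNGTT (grainyhead, 2.09%) or CAAAGTCCA (HNF4, 0.475%). The same held for the E2F letters TTTCCCGC, TTTCGCGC, TTTGCCGC and TTTGGCGC (2.27% together). A match describes letters in a window and is not a measured binding site.

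**Figure D1:**
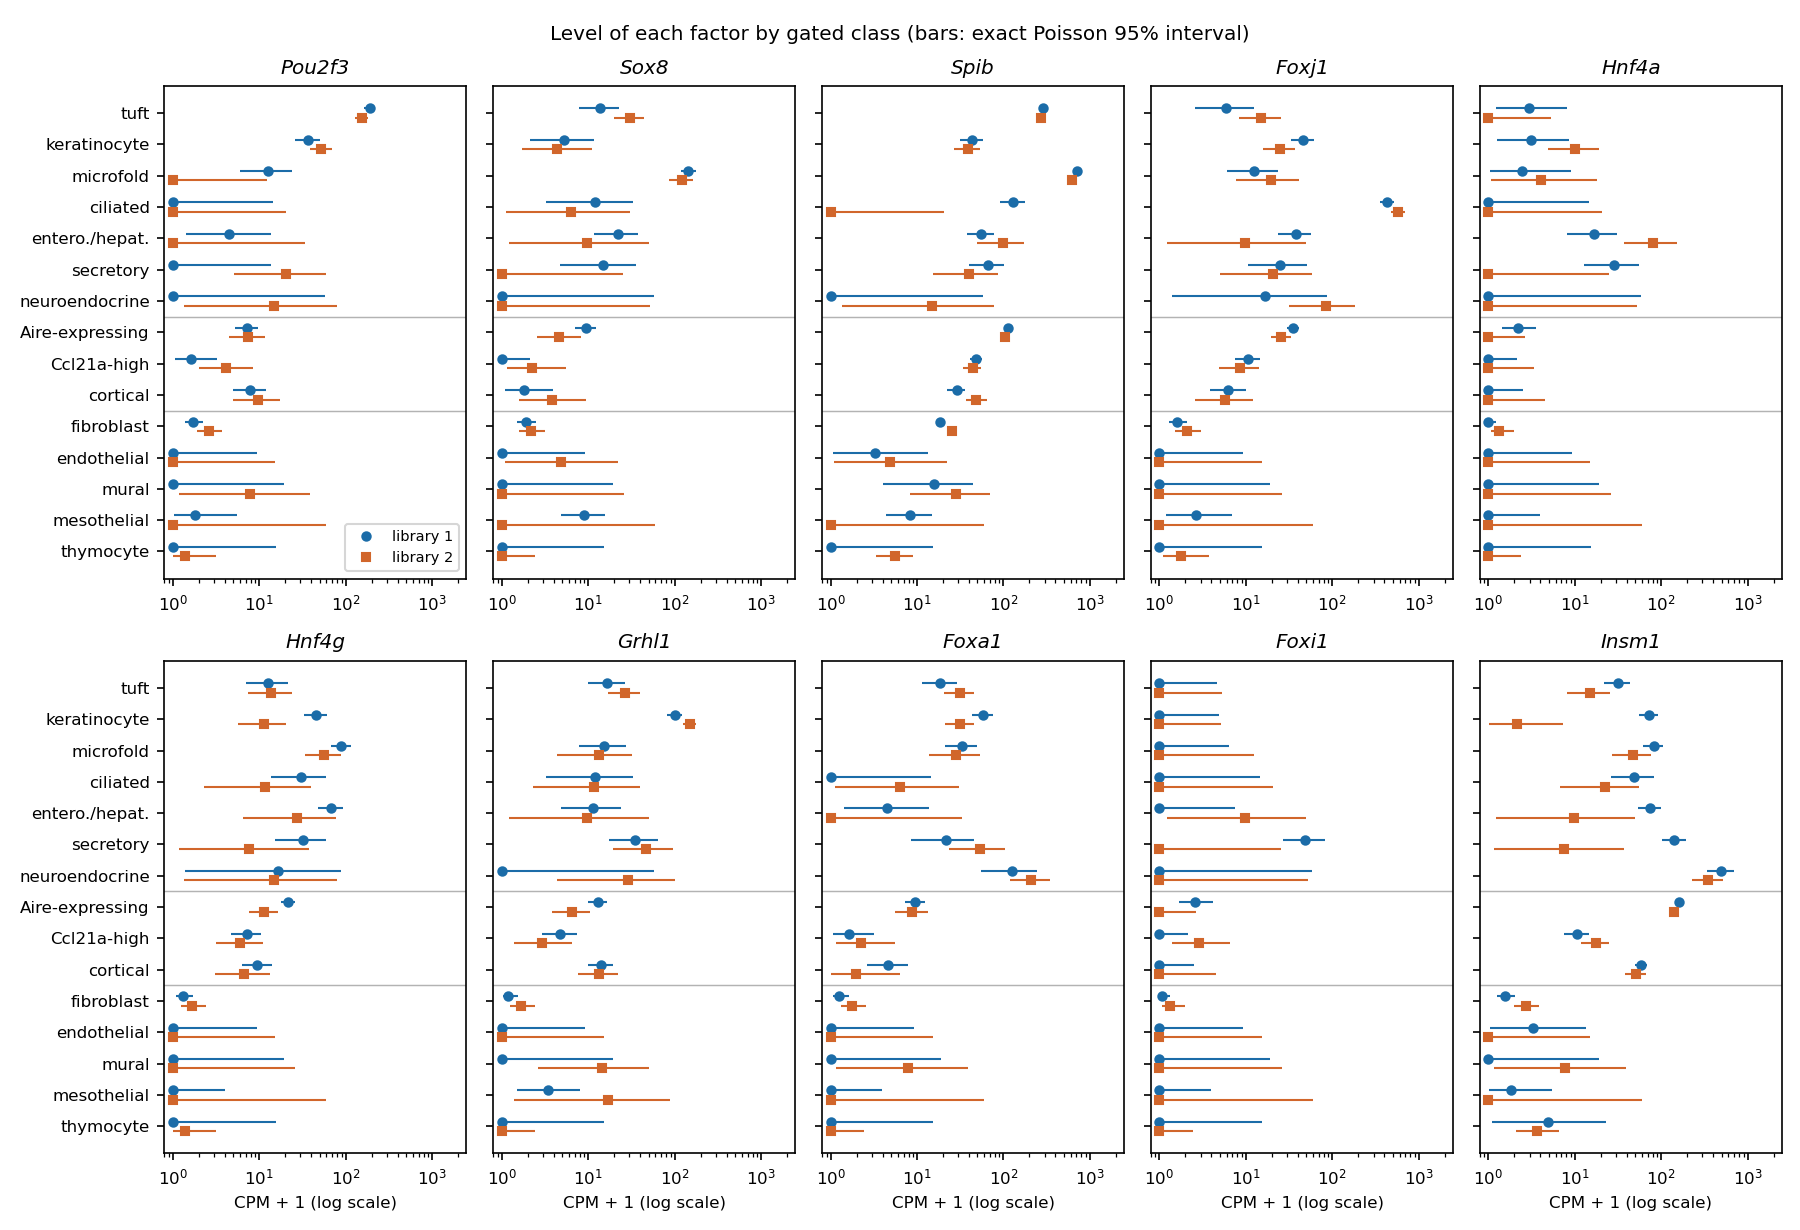
Level of each of the 10 factors in 15 gated classes, as CPM + 1 on a log scale, with library 1 as circles and library 2 as squares. Bars are exact Poisson 95% intervals and cover counting error only, and lines divide mimetic gates, other epithelium and non-epithelial cells. Pou2f3 stood highest in the tuft gate (189 and 154 CPM), Sox8 and Spib in the microfold gate, Foxj1 in the ciliated gate and Insm1 in the neuroendocrine gate.

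Pou2f3 was concentrated in the tuft gate. Tuft cells had 189 and 154 CPM (193 and 132 UMIs; 171 ± 24.6, mean ± SD, n = 2), and this gate held 61.1% and 47.3% of all Pou2f3 UMIs of kept cells. A Pou2f3 UMI was found in 58 of 67 and 56 of 175 tuft cells, and in 17.9% and 14.3% after thinning, against 0.116% and 0.131% of thinned fibroblasts. The next class in order was the keratinocyte gate with 35.9 and 51.1 CPM. No other class with at least 10 cells in each library passed 19.7 CPM in either library. Aire-expressing cells had 6.17 and 6.37 CPM, cortical cells 6.92 and 8.61 CPM, Ccl21a-high cells 0.616 and 3.17 CPM, and fibroblasts 0.725 and 1.64 CPM.

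Both libraries placed tuft cells above every other class, with no overlap. Of all genes tested in the contrast of the tuft gate with the mean of the 4 other large mimetic gates, 15% were called at an adjusted p at or below 0.05, 8.28% higher and 6.68% lower. Pou2f3 was higher there by 4.10 log2 units (SE 0.44, edgeR quasi-likelihood test, adjusted p = 4.407e-06). In keratinocyte cells the fold over the other gates was 1.68 and was not called (edgeR adjusted p = 0.1019). Keratinocyte cells with no tuft marker had 42.6 and 35.8 CPM (25 and 125 cells), against 32.7 and 61.8 CPM in those with at least 1 tuft marker. The libraries thus differed in direction. All markers of tuft cells together summed to 149 and 360 CPM in the keratinocyte gate, against 10438 and 7209 CPM in the tuft gate itself. The source of Pou2f3 in the keratinocyte gate was not tested.

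Sox8 was highest in the microfold gate. Microfold cells had 143 and 120 CPM (99 and 39 UMIs; 132 ± 16.6, SD, n = 2), and 22 of 50 and 21 of 70 of them had a UMI. Tuft cells followed at 12.7 and 29.2 CPM and enterocyte/hepatocyte cells at 21 and 8.83 CPM. These 2 classes overlapped each other, and microfold cells lay above both in each library. Aire-expressing cells had 8.35 and 3.64 CPM, Ccl21a-high cells 0 and 1.27 CPM, and fibroblasts 0.907 and 1.20 CPM. One microfold cell of library 1 held 23 of the 99 UMIs.

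Spib shared this peak but reached further into other epithelium. It stood at 716 and 626 CPM in microfold cells (495 and 204 UMIs; 671 ± 63.3, SD, n = 2) and at 286 and 273 CPM in tuft cells (292 and 234 UMIs; 279 ± 8.98, SD, n = 2). Aire-expressing cells had 111.8 and 102.5 CPM, Ccl21a-high cells 47.1 and 43.1 CPM, keratinocyte cells 42.2 and 37.5 CPM, and cortical cells 27.7 and 47.8 CPM. Enterocyte/hepatocyte cells had 54.2 and 97.1 CPM and fibroblasts 17.6 and 24.1 CPM. The steps from microfold to tuft and from tuft to Aire-expressing cells were free of overlap between libraries. Ccl21a-high cells lay just above keratinocyte cells, and cortical cells overlapped both.

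The same order appeared in the share of cells with a UMI at equal depth. After thinning, a Spib UMI was found in 30% and 45.7% of microfold, 20.9% and 17.7% of tuft, 10.4% and 6.57% of Aire-expressing, and 1.45% and 2.83% of fibroblast cells. Thymocytes of library 2, at a median of 2014.5 UMIs per cell against 1910.5 in microfold cells, had a thinned share of 0.115%. Spib is also a factor of B cells and plasmacytoid dendritic cells. The 5 B cell markers summed to 53.5 and 92.1 CPM in microfold and 78.3 and 82.8 CPM in tuft cells, with Ms4a1 at 0 in 3 of these 4 sums, against 6892 and 7488 CPM in gated B cells. Of 5 plasmacytoid dendritic markers the microfold gate had 4 and 3, at a summed 255 and 233 CPM, below the 329 and 369 CPM of fibroblasts, and Siglech was at 0 in both libraries. The part of B cells and plasmacytoid dendritic cells in these Spib levels was not tested.

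**Figure D2:**
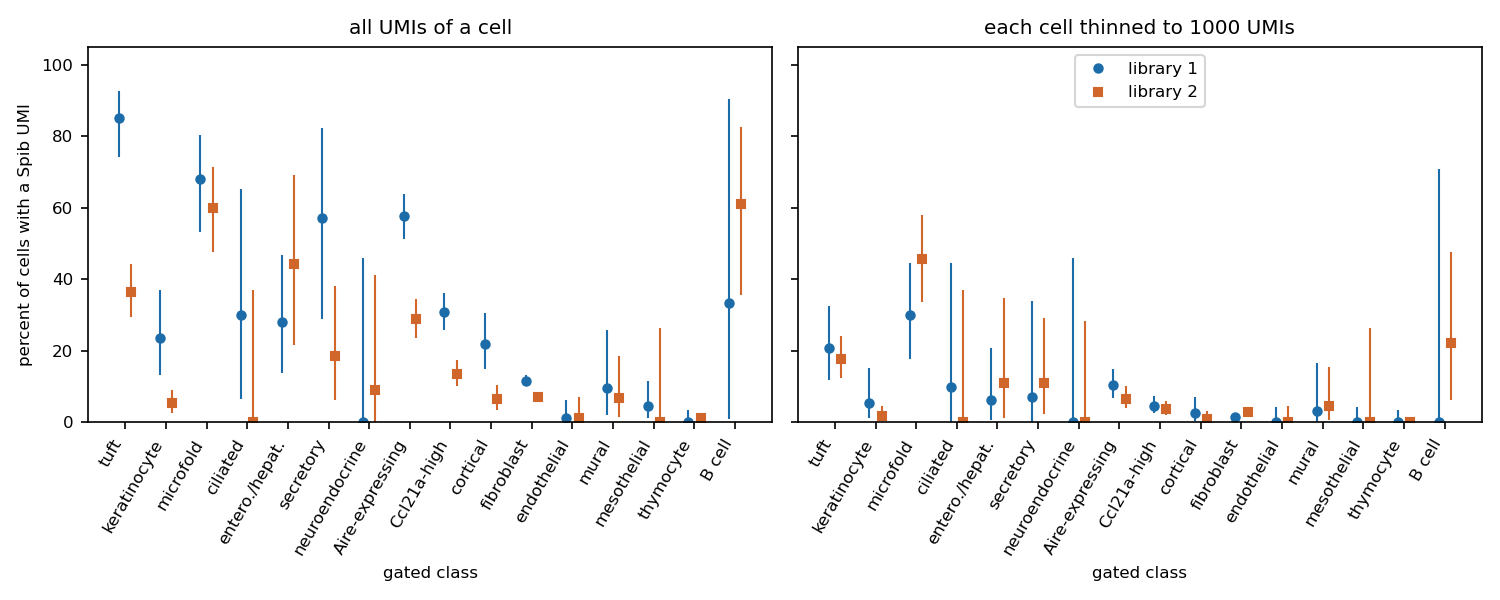
Percent of cells with a Spib UMI by gated class, from all UMIs of a cell (left) and after thinning each cell to 1000 UMIs (right), with exact binomial 95% intervals, library 1 as circles and library 2 as squares. Thinned shares were 30% and 45.7% in microfold cells and 20.9% and 17.7% in tuft cells, while in fibroblasts they were 1.45% and 2.83%.

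Against the other large mimetic gates, 4.15% of genes were called for microfold cells and 3.77% were higher, and 3 of the 9 factors tested were among them. Spib was higher by 3.33 log2 units (SE 0.25, edgeR adjusted p = 9.279e-08) and Sox8 by 3.89 (SE 0.47, adjusted p = 6.732e-05). In tuft cells Spib was higher than in the mean of the other gates by 1.37 (SE 0.26, adjusted p = 0.001366), although microfold cells were part of that mean. This call was lost under the stricter cell filter (0.34, adjusted p = 0.5136). In keratinocyte cells Spib was lower by 2.03 log2 units (SE 0.33, adjusted p = 0.001359).

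Sox8 and Spib were found together in single cells. Over all mimetic gates, 39 of 43 and 24 of 40 cells with a Sox8 UMI also had Spib, which is 31.5% and 18.2% of the Spib cells. These shares were not set against the share of all mimetic cells with Spib. Of the 43 and 40 cells with Sox8, 22 and 21 were microfold cells, where Spib was highest. Cells with a Sox8 UMI can also be the deeper cells, and the part of depth was not tested. Microfold cells with a Sox8 UMI had 1030 and 1005 Spib CPM (22 and 21 cells), against 359 and 306 CPM in those without (28 and 49 cells). Spib in tuft cells did not go with microfold markers, since tuft cells with none had 307 and 278 CPM and those with at least 1 had 273 and 270 CPM. Cells just inside the microfold gate, with exactly 3 markers, had 188 and 333 Spib CPM, against 812 and 670 CPM with 4 or more markers and 141 and 201 CPM in cells left outside with 2.

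Hnf4g, a nuclear receptor of gut epithelium, was also raised in microfold cells. It had 88.2 and 55.3 CPM there (61 and 18 UMIs; 71.8 ± 23.3, SD, n = 2), 66.5 and 26.5 CPM in the enterocyte/hepatocyte gate and 44.3 and 10.2 CPM in keratinocyte cells. Tuft cells had 11.7 and 12.8 CPM, Aire-expressing cells 20.7 and 10.5 CPM, Ccl21a-high cells 6.16 and 5.07 CPM, and fibroblasts 0.302 and 0.655 CPM. The microfold and enterocyte/hepatocyte gates overlapped between libraries. Relative to the other gates Hnf4g was higher in microfold cells by 1.86 log2 units (SE 0.39, edgeR adjusted p = 0.009508) and lower in tuft cells by 1.65 (SE 0.48, adjusted p = 0.02842).

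Most microfold cells also had an enterocyte/hepatocyte marker. The 42 and 54 that did had 92.4 and 60.4 CPM of Hnf4g, against 0 UMIs in the 8 and 16 cells with none. Counting error alone allows up to 120 and 135 CPM in those few cells (95% Poisson bounds), so a difference was not detectable at this depth. When cells that passed more than 1 epithelial gate were set aside, the microfold call was lost (1.66, adjusted p = 0.08909). The tuft call was lost in 5 of 11 alternatives, with an adjusted p of up to 0.2878.

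Hnf4a was a rare transcript. The enterocyte/hepatocyte gate had 9 UMIs in 5 of 32 cells and 9 UMIs in 3 of 18 cells, which is 15.7 and 79.4 CPM. The secretory gate had 27.4 CPM in library 1, all 8 UMIs from 1 cell, and 0 in library 2. Keratinocyte cells had 2.11 and 9.08 CPM, microfold cells 1.45 and 3.07 CPM, and tuft cells 1.96 and 0 CPM. Aire-expressing cells had 6 and 0 UMIs, fibroblasts 0 and 3 UMIs, and Ccl21a-high and cortical cells 0 in both libraries. The enterocyte/hepatocyte gate was thus above the other classes in library 2 alone. Over all mimetic gates, 8 of 10 and 2 of 6 cells with Hnf4a also had Hnf4g.

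In the enterocyte/hepatocyte gate 0 of 9 factors were called by the edgeR test with its low-count filter, where 2.39% of all genes were, and 5 factors had an unadjusted p under 0.05. Under DESeq2's Wald test 1 factor was called, Spib, lower by 1.03 log2 units (adjusted p = 0.04432). Hnf4a had a fitted fold of 3.28 (edgeR adjusted p = 0.1727) and Hnf4g of 0.89 (adjusted p = 0.3628). Foxa1, at 3.50 and 0 CPM, had a fitted fold of -3.42 (adjusted p = 0.06001). Without the low-count filter Hnf4a was called higher (3.23, adjusted p = 0.01721) and Foxa1 lower (-3.40, adjusted p = 0.005041). Foxa1 was called lower in 3 of 10 alternatives, and Pou2f3 and Spib in 2 each. The fibroblast and thymocyte markers of this gate in library 2 are given above, and their part in these values was not tested.

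Grhl1 was highest in the keratinocyte gate, at 99.2 and 149.9 CPM (94 and 132 UMIs; 125 ± 35.8, SD, n = 2). A UMI was found in 32 of 55 and 73 of 226 cells, and in 12.7% and 12.4% after thinning, against 0% (0 of 1728 cells, which allows up to 0.174%) and 0.0436% of thinned fibroblasts. The secretory gate was next with 34.3 and 45.9 CPM, then tuft cells with 15.7 and 25.7 CPM. Cortical cells had 13.0 and 12.4 CPM, Aire-expressing cells 11.9 and 5.46 CPM, and Ccl21a-high cells 3.70 and 1.90 CPM. Keratinocyte cells lay above every other class in both libraries. They exceeded the mean of the other large gates by 2.72 log2 units (SE 0.35, edgeR adjusted p = 0.0002646), in a contrast that called 3.36% of all genes, 3.05% as higher and 0.303% as lower.

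Foxj1 was found in nearly every gated ciliated cell. These had 428 and 579 CPM (117 and 109 UMIs; 504 ± 107, SD, n = 2), with a UMI in 10 of 10 and 7 of 8 cells. With 10 and 8 cells the gate was too small for the contrasts between gates and has no test. Neuroendocrine cells had 15.5 and 83.5 CPM, from 1 and 6 UMIs. Keratinocyte cells had 44.3 and 23.8 CPM, Aire-expressing cells 34.2 and 24.6 CPM, Ccl21a-high cells 9.55 and 7.61 CPM, and fibroblasts 0.604 and 1.09 CPM. The ciliated gate lay above all other classes, and the keratinocyte gate and Aire-expressing cells overlapped. Aire-expressing cells with no ciliated marker had 34.7 and 15.6 CPM of Foxj1, against 33.8 and 33.4 CPM in those with at least 1. The level was thus similar with and without a ciliated marker in library 1 and higher with one in library 2. The source of Foxj1 in Aire-expressing cells was not tested.

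Foxa1 was spread over several mimetic gates. Its highest level was in neuroendocrine cells, at 124 and 209 CPM from 8 and 15 UMIs in 5 cells of each library (95% Poisson intervals 53.5 to 244 and 117 to 344 CPM). Keratinocyte cells had 57.01 and 30.7 CPM, secretory cells 20.6 and 52.5 CPM, microfold cells 31.8 and 27.6 CPM, and tuft cells 17.6 and 30.3 CPM. In the order of their means, keratinocyte, secretory, microfold and tuft, each gate overlapped the next between libraries. Aire-expressing cells lay below them at 8.55 and 7.74 CPM, and cortical cells had 3.66 and 0.956 CPM. Foxa1 was not called in any contrast of 1 mimetic gate with the others by the edgeR test with its low-count filter. Without the low-count filter it was called higher in the keratinocyte gate (1.46, adjusted p = 0.04871), and its calls in the enterocyte/hepatocyte gate are given above.

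Foxi1 was close to the limit of detection, with 36 and 24 UMIs in all kept cells. The secretory gate of library 1 had 14 UMIs, 12 of them in 1 cell, and that of library 2 had 0 (95% upper bound 24.2 CPM). The ionocyte gate held 2 UMIs in 1 of its 2 cells. In library 2 cells that fell in no gate had 13 of the 24 UMIs. Foxi1 failed the low-count filter and entered no test.

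Insm1 was concentrated in neuroendocrine and Aire-expressing cells. Neuroendocrine cells had the highest level, 495 and 348 CPM (32 and 25 UMIs; 422 ± 104, SD, n = 2), in 5 of 6 and 6 of 11 cells. Aire-expressing cells had 159 and 138 CPM (148.5 ± 15, SD, n = 2), and with 800 and 303 UMIs they held 55.0% and 50.5% of all Insm1 UMIs of kept cells. Neuroendocrine and Aire-expressing cells did not overlap. Aire-expressing cells lay above every remaining class within each library, though the secretory gate of library 1 fell inside their range.

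The other mimetic gates differed between libraries in Insm1. Secretory cells had 140 and 6.56 CPM, keratinocyte cells 70.7 and 1.14 CPM, microfold cells 81.0 and 46.1 CPM, and enterocyte/hepatocyte cells 73.4 and 8.83 CPM. Each was lower in library 2. Cortical cells had 57.4 and 49.7 CPM, tuft cells 30.3 and 14.0 CPM, Ccl21a-high cells 9.55 and 16.5 CPM, and fibroblasts 0.544 and 1.75 CPM.

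Across classes Insm1 and Aire differed together in some gates and not in others. The keratinocyte gate had 144 and 47.7 CPM of Aire, and 30.9% and 3.54% of its cells had an Aire UMI. The enterocyte/hepatocyte gate had 458 and 106 Aire CPM, the highest of the mimetic gates in library 1, and 62.5% and 33.3% of its cells had an Aire UMI. The secretory gate had 346 and 131 Aire CPM, with an Aire UMI in 64.3% and 18.5% of its cells. Ciliated cells had 65.9 and 15.9 Aire CPM, and the tuft gate 12.7 and 2.33 CPM. The microfold gate had 203 and 212 Aire CPM with 81.0 and 46.1 Insm1 CPM, cortical cells had 209 and 294 Aire CPM with 57.4 and 49.7 Insm1 CPM, and neuroendocrine cells, the highest in Insm1, had 15.5 and 13.9 Aire CPM. Mimetic cells with an Aire UMI had 118 and 56.6 Insm1 CPM (73 and 35 cells), against 34.1 and 17.1 CPM in those without (163 and 501 cells). Among Aire-expressing cells, those with at least 2 Aire UMIs had 167 and 156 Insm1 CPM, against 103 and 63.2 CPM in those with 1. Cells with an Aire UMI can also be the deeper cells, and the part of depth and of Aire in these values was not tested.

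**Figure D3:**
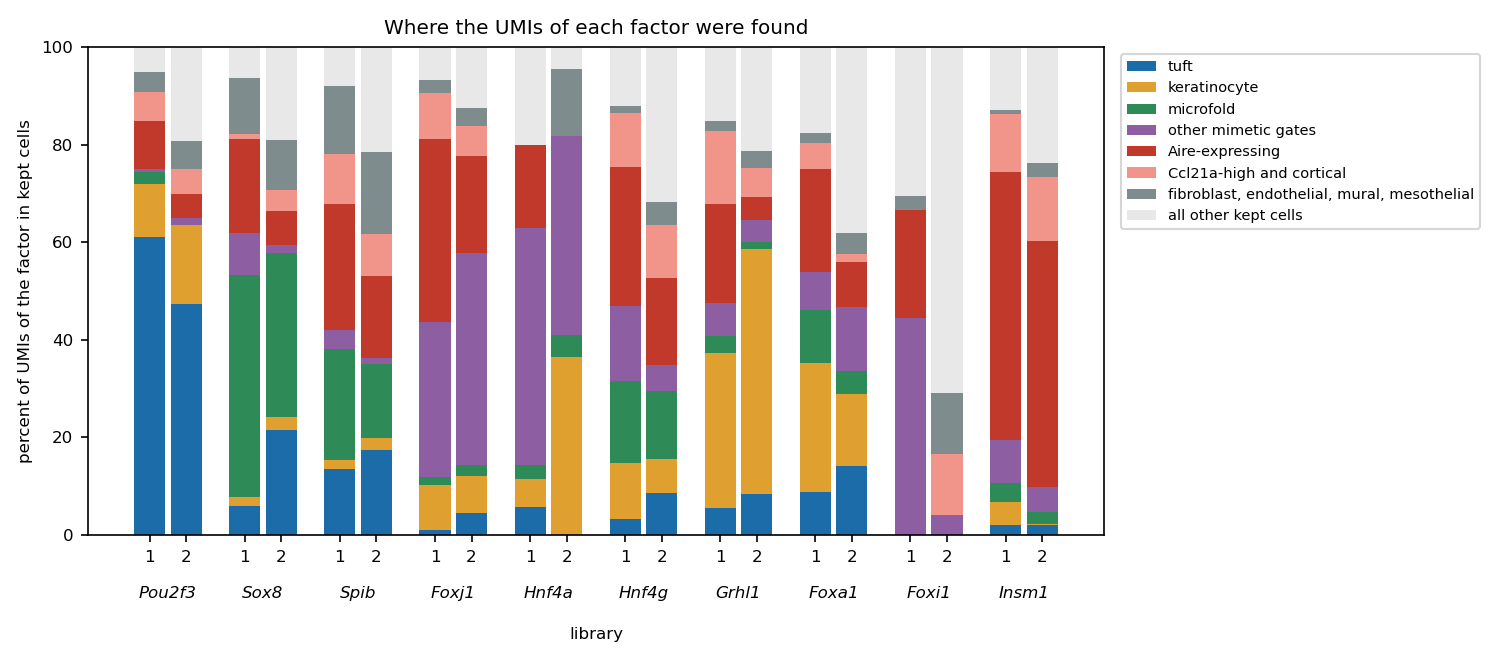
Percent of each factor's UMIs in kept cells by class, with bars for libraries 1 and 2, where all other kept cells are those in no gate, of 2 lineages, or of other gates. The tuft gate held 61.1% and 47.3% of Pou2f3 and Aire-expressing cells held 55.0% and 50.5% of Insm1.

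The first general comparison asked whether the factors were higher in mimetic cells than in other thymic epithelium. The pooled mimetic class was set against the mean of the Aire-expressing, Ccl21a-high and cortical classes. Of 9 factors tested 8 were higher and 0 lower, where 17.3% of all genes were called and 13.2% were higher. The median log2 fold over the 9 was 2.73, and 2.52 without Hnf4a, against 0.07 over all genes. The members were drawn from known mimetic lineages with earlier results of these data in view, so this count describes them and sets them apart from no other list.

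Levels pooled over all cells of each side show the sizes behind these calls. Pou2f3 had 60.9 and 69.8 CPM in mimetic cells, against 4.66 and 5.81 CPM in the other 3 epithelial classes pooled, a ratio of 13.1 and 12. Sox8 had 34.7 and 26.6 CPM against 4.10 and 2.70 CPM, a ratio of 8.47 and 9.86. For Foxa1 the mimetic level was 28.3 and 33.2 CPM against 5.03 and 4.15 CPM, and the ratio was 5.62 and 7.99. In each of these the mimetic class was higher in both libraries, without overlap.

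Grhl1 and Foxj1 differed more between libraries in the size of this ratio. Grhl1 had 36.0 and 65.6 CPM in mimetic cells, against 9.69 and 5.81 CPM, a ratio of 3.71 and 11.3. Foxj1 had 51.7 and 60.9 CPM against 20.1 and 14.7 CPM, a ratio of 2.57 and 4.14. Spib, at 235 and 189 CPM in mimetic cells against 73.0 and 71.2 CPM, gave 3.21 and 2.65, and Hnf4g, at 44.0 and 17.4 CPM against 13.5 and 7.68 CPM, gave 3.25 and 2.26. Hnf4a had 22 and 18 UMIs in mimetic cells against 6 and 0 in other epithelium, which is a ratio of 10.1 in library 1 and at least 11.2-fold higher in library 2, taking 3 counts per library as the floor. The keratinocyte gate, where Grhl1 was highest, made up more of the mimetic cells in library 2, 226 of 536, than in library 1, 55 of 236.

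By the edgeR quasi-likelihood test Pou2f3 was higher by 3.88 log2 units (SE 0.31, adjusted p = 1.33e-06), Sox8 by 4.16 (SE 0.55, adjusted p = 0.0001733) and Foxa1 by 3.42 (SE 0.44, adjusted p = 0.0002157). Grhl1 was higher by 2.73 (SE 0.40), Foxj1 by 2.31 (SE 0.25), Spib by 1.88 (SE 0.23) and Hnf4g by 1.75 (SE 0.35). Their adjusted p-values lay between 3.935e-05 and 0.004682. Of the 201 and 158 mimetic Foxj1 UMIs, 117 and 109 came from the ciliated gate. In tuft, microfold and secretory cells Foxj1 lay below its level in Aire-expressing cells in both libraries. Keratinocyte, enterocyte/hepatocyte and neuroendocrine cells lay above that level in a single library each. Most mimetic Pou2f3 UMIs came from tuft cells and most mimetic Sox8 UMIs from microfold cells. A pooled call thus does not describe each mimetic gate. Hnf4a was called (adjusted p = 0.01897), and its fitted fold is no bound because Ccl21a-high and cortical cells had 0 UMIs. DESeq2 did not call it (adjusted p = 0.5784).

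Insm1 was the factor not called in this comparison. It had 72.5 and 22.8 CPM in mimetic cells, against 90.6 and 79.1 CPM in the other epithelial classes pooled, a ratio of 0.801 and 0.288. The fitted fold was -0.01 (SE 0.41, edgeR adjusted p = 0.9951), and the folds in single libraries were 0.68 and -1.19. With Aire-expressing cells left out of the reference, the ratio was 2.40 in library 1 and 0.765 in library 2.

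**Figure D4:**
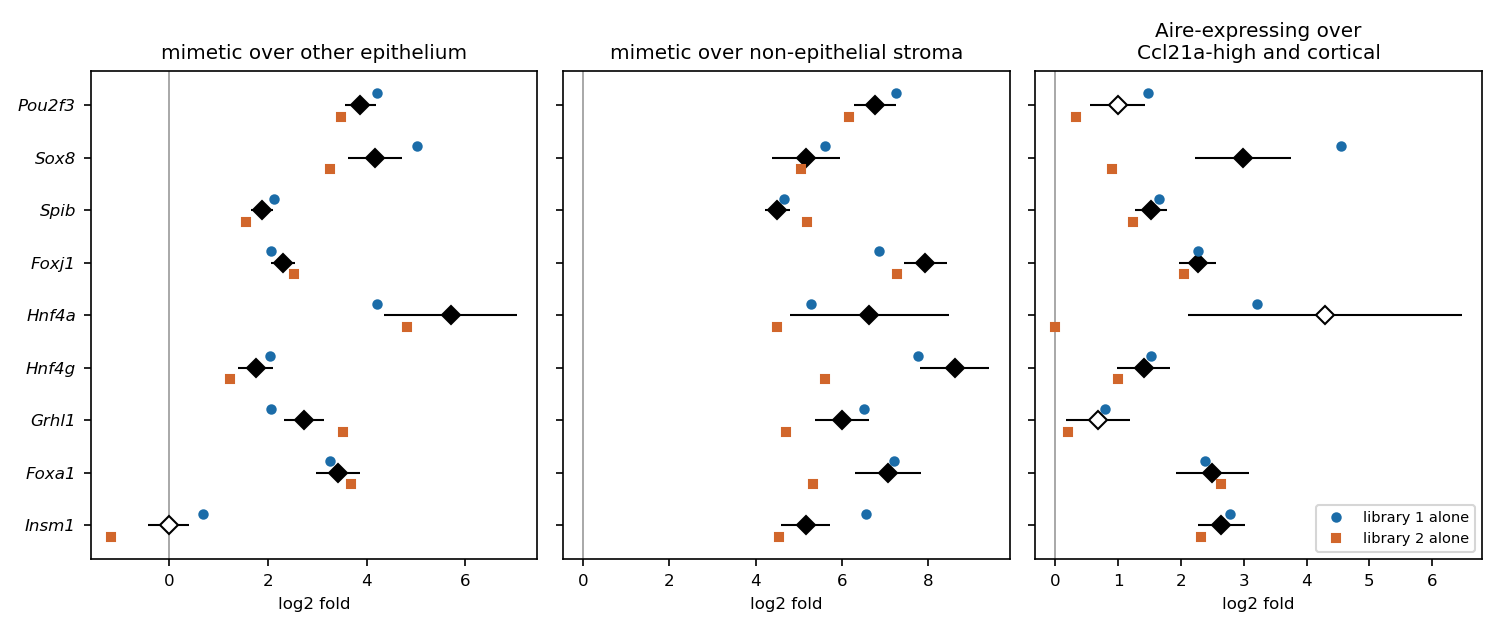
Log2 folds of the 9 tested factors in 3 comparisons, with diamonds for the edgeR fit (bars are ± 1 SE; filled diamonds are called at an adjusted p of 0.05, open ones are not), circles for library 1 alone and squares for library 2 alone. Insm1 was -0.01 in mimetic cells over other epithelium, with 0.68 and -1.19 in single libraries, and 2.64 in Aire-expressing over Ccl21a-high and cortical cells. Fitted folds where a class has 0 UMIs are no bounds.

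Against non-epithelial stroma all 9 tested factors were higher, where 39% of all genes were called and 29.3% were higher. Several stromal classes had 0 UMIs of a factor, so ratios of pooled levels are given in place of fitted folds. Mimetic cells were above stroma by 86.4 and 42.0 times for Pou2f3, 110.6 and 70.1 times for Grhl1, 79.4 and 58.7 times for Foxj1, and 25.6 and 21.3 times for Sox8. For Foxa1 the ratios were 130 and 39.9, for Hnf4g 162 and 27.8, and for Insm1 121 and 12.9. For each of these 7 the ratio was larger in library 1, where the 7 fibroblast markers in the mimetic gates were also lower, whose part in this was not tested. Hnf4a was at least 34.8-fold higher in library 1, and 22.3 times (95% interval 6.5 to 118) in library 2 from 3 stromal UMIs, and DESeq2 did not call it (adjusted p = 0.5892). The median of the log2 ratios over the 9 factors was 6.43 and 4.80, while the median fitted fold was 6.63 against 0.37 over all genes.

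Spib had the smallest ratio to stroma, 14.2 and 8.03. Fibroblasts with no epithelial marker UMI had 19.5 and 20.9 Spib CPM, and those with any had 15.6 and 28.5 CPM. Endothelial cells had 2.26 and 3.85 CPM and mural cells 14.8 and 27.2 CPM. Thymocytes, at 0 and 4.62 CPM, lay below fibroblasts in both libraries. The fibroblast level thus did not go with epithelial marker UMIs in library 1 and was higher with them in library 2.

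The third comparison set Aire-expressing cells against the mean of Ccl21a-high and cortical cells, which are also among the reference classes of the first comparison. The cortical class was not free of Aire: 30.5% and 16.1% of its cells had an Aire UMI, at 209 and 294 CPM, against 580 and 567 CPM in the Aire-expressing class. Of 9 factors 6 were higher and 0 lower, where 20.7% of all genes were called and 14.8% were higher. The median log2 fold was 2.26 (1.90 without Hnf4a), against 0.14 over all genes. Insm1 was higher by 2.64 log2 units (SE 0.38, edgeR adjusted p = 0.0005061), Foxj1 by 2.27 (SE 0.30, adjusted p = 0.0004537) and Spib by 1.52 (SE 0.26, adjusted p = 0.001292). Foxa1 was higher by 2.50 (SE 0.58, adjusted p = 0.0108), a call lost when cells of 2 lineages were kept (2.37, adjusted p = 0.1117).

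The calls of Sox8 and Hnf4g in Aire-expressing cells were less even. Sox8 was higher by 2.99 (SE 0.77, edgeR adjusted p = 0.01564), with single-library folds of 4.55 and 0.91. Hnf4g was higher by 1.40 (SE 0.42, adjusted p = 0.03425), and this call was lost in 6 of 11 alternatives, with an adjusted p of up to 0.1583. Pou2f3 (0.99, adjusted p = 0.1296), Grhl1 (0.67, adjusted p = 0.3881) and Hnf4a (4.29, adjusted p = 0.2104) were not called. Whether the factors called in Aire-expressing cells differ from those not called was not tested.

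Many Aire-expressing cells had a UMI of at least 1 factor. At least 1 of the 10 factors was found in 89.4% and 54.7% of mimetic cells, 86.1% and 49.6% of Aire-expressing cells, 43.1% and 23.7% of Ccl21a-high cells and 44.1% and 18.0% of cortical cells. After thinning to 1000 UMIs these shares were 36.9% and 31.5% in mimetic, 26.7% and 17.9% in Aire-expressing, 7.78% and 7.29% in Ccl21a-high, and 13.6% and 5.07% in cortical cells. Fibroblasts had 1.74% and 3.92%. At equal depth the order mimetic, then Aire-expressing, then the other classes was thus the same in both libraries. The factors were not alike in this. In Aire-expressing cells the highest levels were those of Insm1 (159 and 138 CPM) and Spib (111.8 and 102.5 CPM). Foxj1 (34.2 and 24.6 CPM) and Hnf4g (20.7 and 10.5 CPM) followed, and no other factor passed 12 CPM in either library.

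**Figure D5:**
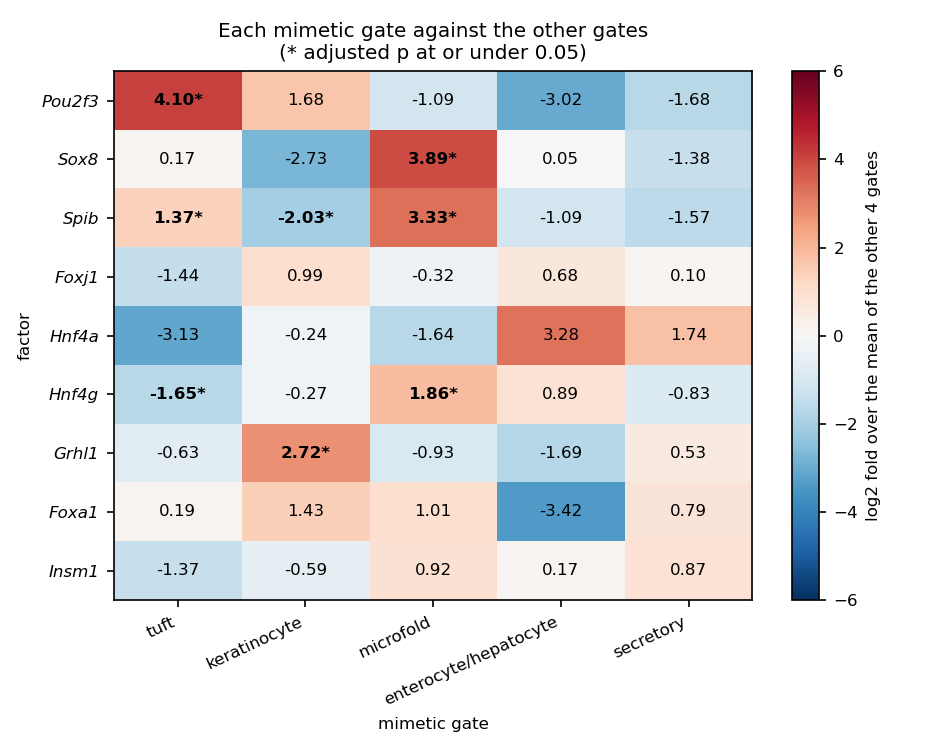
Log2 fold of the 9 tested factors in each of 5 mimetic gates over the mean of the other 4, coloured from lower (blue) to higher (red), with an asterisk at an adjusted p at or under 0.05 in the edgeR test. Pou2f3 led in the tuft gate (4.10), Grhl1 in the keratinocyte gate (2.72), and Sox8 (3.89) and Spib (3.33) in the microfold gate, and no factor was called in the enterocyte/hepatocyte and secretory gates.

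Between the 5 large mimetic gates 8 of 45 tests passed. Of all genes 15% were called in the tuft, 3.36% in the keratinocyte, 4.15% in the microfold and 2.39% in the enterocyte/hepatocyte contrast. In the tuft gate Pou2f3 and Spib were higher and Hnf4g lower, in the keratinocyte gate Grhl1 was higher and Spib lower, and in the microfold gate Sox8, Spib and Hnf4g were higher. The secretory gate had 0 factors called by edgeR, where 0.663% of all genes were called, and 1 factor with an unadjusted p under 0.05. That factor was Spib (-1.57, adjusted p = 0.05778), which was called lower in 5 of 9 alternatives, DESeq2 among them (-1.505, adjusted p = 0.008056). With 14 and 27 secretory cells, the levels behind these folds rest on few UMIs.

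The effector genes of each programme were counted beside the factors, without the markers used for sorting. Of all genes 8.28% were higher in the tuft, 3.05% in the keratinocyte and 3.77% in the microfold gate. In the tuft gate 11 of 11 tested tuft effectors were higher, led by Gnat3, the taste G protein gustducin (9.34 log2 units), the cytokine Il25 (9.33), Chat, which makes acetylcholine (8.01), and the taste receptor Tas1r3 (7.69). In the keratinocyte gate 10 of 13 skin effectors were higher, with the protease Klk7 at 6.45, the desmosomal Dsc1 at 6.38, the lipid transporter Abca12 at 5.97 and the keratin Krt1 at 5.44. In the microfold gate 8 of 10 were higher, among them the chemokine Ccl6 (7.38), the oxidase subunit Ncf1 (2.80), the annexin Anxa5 (2.59) and Tnfrsf11a, the receptor RANK (1.93). In each of these 3 gates a lineage factor of the same programme was also called higher.

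In the enterocyte/hepatocyte and secretory gates effectors were called while no factor was in the edgeR test with its low-count filter. Of all genes 2.39% and 0.663% were called in these gates. Of 11 tested enterocyte/hepatocyte effectors 7 were higher, including the apolipoprotein Apoc3 (5.15), the lipid transfer protein Mttp (3.15), the brush border protein Vil1 (2.46) and the cadherin Cdh17 (1.81). In the secretory gate 2 of 9 effectors were higher, Tff3 (4.47) and the club cell enzyme Cyp2f2 (3.50). In Aire-expressing cells 8 of 13 neuroendocrine effectors were higher than in Ccl21a-high and cortical cells, led by the peptides Sst (7.43) and Gal (5.29), and 4 of 8 ciliated effectors were higher. So were 9 of 13 keratinocyte, 7 of 10 microfold, 5 of 9 secretory, 3 of 10 enterocyte/hepatocyte, 1 of 10 tuft and 0 of 6 ionocyte effectors. Of all genes 14.8% were higher in this contrast, and the tuft and ionocyte counts lay under that share. Insm1, Foxj1, Sox8, Spib, Foxa1 and Hnf4g were called higher in the same contrast, while Grhl1, a factor of the keratinocyte programme, was not.

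Other lineage transcription factors were counted in the same way, 28 tested of 46. In mimetic cells against other epithelium 15 were higher and 2 lower, where 13.2% of all genes were higher. The largest folds were those of the zinc finger factors St18 (6.15) and Gfi1b (6.11), of Onecut2 (5.03) and of Mcidas, a regulator of multiciliated cells (4.64). In Aire-expressing cells 9 were higher and 1 lower, where 14.8% of all genes were higher. Among those higher was the intestinal factor Cdx1 (3.30). Against stroma 23 were higher in mimetic cells, where 29.3% of all genes were. The median log2 fold of these 28 in mimetic cells over other epithelium was 1.63, against 0.07 over all genes.

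The same factors were counted between the mimetic gates. In the tuft gate 6 were higher and 2 lower, where 8.28% and 6.68% of all genes were. Among them St18 (5.65), Ascl2 (4.19) and Gfi1b (4.03) were higher and Onecut2 was lower (-3.80). St18 had 94.9 and 67.7 CPM in tuft cells, and Gfi1b had 25.4 and 22.2 CPM. In the keratinocyte gate Gata3 (2.13), Zfp750 (1.57) and Klf4 (1.19), all 3 of them known in epidermis, were higher, where 3.05% of all genes were. In the microfold gate Onecut2 was higher (3.35), at 27.5 and 73.7 CPM, while Sox9 (-2.02) and Sox4 (-1.09) were lower. Of all genes 3.77% were higher in that gate. In the enterocyte/hepatocyte gate 0 were higher and 3 lower, where 2.39% of all genes were called. In the secretory gate Tfcp2l1 was higher (1.77), where 0.663% of all genes were called. Of 28 tested, the 2 lower in the tuft gate and the 1 higher in the microfold gate were near the shares over all genes.

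Across the 26 sums of a library and a class, each factor was set beside the genes with the most similar profile, by Pearson correlation of log2(CPM + 10). These are descriptions over sums that share libraries and depth. Only classes with at least 10 cells in each library entered. The ciliated gate, where Foxj1 was highest, and the neuroendocrine gate, where Insm1 and Foxa1 were highest, are thus not in these profiles. Pou2f3 had among its nearest genes Slitrk6 (r = 0.94) and Ano7 (0.92), while Sox8 lay nearest to Plekhs1 (0.91), Nefl (0.91) and Siglecf (0.90), and Spib to Pcbd1 (0.89), Marveld3 (0.86) and Tmem117 (0.85). Hnf4a lay nearest to Cldn2 (0.94), Hnf4g to Scg5, Anks4b and Ebi3 (0.93 each), Grhl1 to Rhbg (0.91) and Foxa1 to Tspan8 (0.92). Insm1 had Tnfrsf9 (0.92) and Tac2 (0.91) among its nearest genes, while Foxj1 lay nearest to Csrnp3 and Zfp750 (0.91 each), and Foxi1, on very few UMIs, to Nxph2 (0.95). Among the factors themselves the 5 closest pairs were Grhl1 and Foxa1 (0.82), Sox8 and Spib (0.81), Sox8 and Hnf4g (0.79), Foxj1 and Hnf4g (0.78) and Spib and Hnf4g (0.77).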

How the data were processed

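Single-cell RNA sequencing of the CD45- stroma was done with the 10x Genomics 3' chemistry. The deposited values are unnormalised UMI counts for every gene in every barcode. Cell Ranger 7, Seurat 4 and genome build mm10 come from the submitters' processing notes, whereas cellranger 6.0.0 stands in the matrices, per the file headers. A barcode was kept with a minimum of 500 genes and 1000 UMIs and with mitochondrial UMIs no higher than 10%, that is 3588 of 5110 in library 1 and 8186 of 19163 in library 2.

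A cell entered a class with at least 3 of its markers and a floor of marker UMIs per 10000 UMIs (20 for mimetic gates, 30 for cortical, endothelial and mural, 100 for fibroblasts). The Aire-expressing class needed at least 1 Aire UMI, and the Ccl21a-high class at least 3 Ccl21a UMIs and no Aire UMI. Both took only epithelial cells that had passed no mimetic or cortical gate. Cells of the mimetic and cortical gates could thus also have Aire UMIs. Cells with markers of 2 lineages (52 and 534) were set aside. No doublet caller was run, so doublets of 2 epithelial cells can remain, and 58 and 83 cells passed 2 epithelial gates and were given to the gate with the larger share of markers. No gate used any of the 10 genes. The members, gene lists, markers and floors were chosen with earlier results of these data known.

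Counts were summed per library and class. Sums were tested with edgeR 4.0.16 (TMM scaling, low-count filter, quasi-likelihood test with Benjamini-Hochberg adjustment over all genes tested) in R 4.3.3, with the library as a replicate block, since classes of 1 library come from the same cell suspension. The pooled fit held 15105 genes and 18 sums, with 8 residual degrees of freedom, and the fit of separate gates 13883 genes and 26 sums, with 12. A standard error is the size of the log2 fold over the square root of its F. Folds of single libraries use a prior count of 0.5 and have no test. Since nothing says that the libraries came from separate animals, p-values measure only the spread between these libraries, which may be technical. Poisson and exact binomial 95% intervals and floors of 3 counts cover counting error only.

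DESeq2 1.42.0 was an alternative. The script was tested on simulated counts before use. The named genes are all 10 members, the 3 nearest genes of each, and for each list up to 4 called genes with the largest fold that moved alike in both libraries. Some of the nearest genes are not reported here. Positions come from GENCODE M21 and promoters from RefSeq.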

Additional observations from a re-analysis of the deposited data

How the results depend on the processing

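For each of the 3 pooled comparisons and for the contrasts between gates, the count of factors called was recomputed under the alternatives. The 8 calls between gates became 17 with no low-count filter (16 among the same 9 factors, the other in Foxi1, which was tested there) and 13 under DESeq2's Wald test. Without the replicate block the counts were 8 for mimetic cells over other epithelium, 9 over stroma, 5 for Aire-expressing cells and 7 between gates, and the calls lost were those of Hnf4g in Aire-expressing cells (adjusted p = 0.06256) and in the tuft gate (0.0556). With cells of 1 epithelial gate alone, an alternative chosen after seeing the data, the counts were 7, 8, 6 and 10, and Hnf4a was no longer tested in the pooled comparisons. Leaving out a library left no residual degrees of freedom, so single libraries have values and no test.

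Signs turned only for folds that were not called. Insm1 in mimetic cells over other epithelium was 0.017 with RLE scaling, 0.047 by DESeq2, 0.034 with no block, 0.083 with 1 marker fewer, 0.087 with the stricter filter and 0.038 with 1 gate alone. With 1 marker fewer, Foxa1 turned to -0.10 (secretory) and -0.084 (tuft), Foxj1 to -0.45 (secretory), Hnf4a to 1.07 (keratinocyte) and 0.70 (microfold), Hnf4g to 0.048 (keratinocyte), Insm1 to -0.60 (enterocyte/hepatocyte) and Sox8 to 0.083 (secretory). With the stricter filter, Foxa1 (tuft) turned to -1.26, Foxj1 (microfold) to 1.44, Pou2f3 (keratinocyte) to -0.047 and Sox8 (tuft) to -0.70. With 1 marker more, Sox8 (tuft) was -0.28. With cells of 2 lineages kept, Foxa1 (tuft) was -0.24 and Foxj1 (secretory) -0.075. With 1 gate alone, Foxj1 was 0.87 (microfold) and -1.27 (secretory), Grhl1 0.14 (microfold), Hnf4a 0.35 (keratinocyte), Pou2f3 0.71 (enterocyte/hepatocyte) and Sox8 -0.43 (enterocyte/hepatocyte). The cause of these changes was not tested. Factors not called between gates gained a call in 13 cases. The most frequent were Foxj1 in the tuft gate (lower, 5 of 11 alternatives), Spib in the secretory gate (lower, 5 of 9), Sox8 in the keratinocyte gate (lower, 4 of 11), Pou2f3 in the keratinocyte gate (higher, 3 of 11, at 5.06 with 1 gate alone) and Foxa1 in the enterocyte/hepatocyte gate (lower, 3 of 10), and the rest were called in 1 or 2 alternatives each. Depth limits Hnf4a and Foxi1, whose levels rest on few UMIs.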

Other observations

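Spib was also found in the few gated B cells. The 3 and 18 B cells had 1 and 25 Spib UMIs, and 11 of the 18 had at least 1. Cells left in no gate held most Foxi1 UMIs of library 2, 13 of 24 from 9 of 2332 cells.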
